A study of Mus musculus with 55 samples.

Results

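Glucose breakdown was followed through 32 enzyme and carrier genes in infarcted mouse left ventricle. They were 17 enzymes of glycolysis, 4 genes that make, use or carry lactate, the 4 Pfkfb genes and 7 enzymes of the pentose phosphate pathway. The members were chosen by gene symbol and matched to Ensembl identifiers found in the count tables of both days, which share 56867 genes. All 32 passed the filter on low counts at day 7, where 18165 genes were tested, and at day 28, where 18901 were tested. The tissue came from C57BL/6J mice after permanent ligation of a coronary artery, so all groups carry an infarct and none is an uninjured heart. The labels give 3 states at each day. Day 7 has 8 libraries of each state, and day 28 has 11 non-diabetic, 10 type 1 and 10 type 2 libraries. Library names carry Ctrl for non-diabetic, hi STZ for type 1 and lo STZ HFFD for type 2 tissue, so the type of diabetes cannot be told apart from these treatments. Whether each replicate is its own animal is not in the labels, so p-values measure the spread between libraries, which may be in part technical. Some libraries of a group share the first number of their name, giving 6, 6 and 4 such sets among the non-diabetic, type 1 and type 2 libraries of day 7 and 4, 4 and 5 at day 28. What a shared number marks is not in the labels, and the counts of calls are also given with each set summed to 1 library.

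Glycolysis splits glucose into pyruvate in the cytosol. Hexokinases trap glucose in the cell, phosphofructokinase commits it to breakdown, and the lower enzymes from Gapdh to Pkm recover energy. Lactate dehydrogenase turns pyruvate into lactate or back, and carriers of the Slc16a family move lactate across the membrane. The Pfkfb enzymes make and remove the small sugar phosphate that switches phosphofructokinase on. The pentose phosphate pathway branches off at G6pdx and gives NADPH, which serves lipid synthesis and the oxidative burst, and ribose for nucleotides. Several steps have a striated muscle isozyme (Pfkm, Pgam2, Eno3) beside a widely expressed one (Pfkl and Pfkp, Pgam1, Eno1). Ldhb is the heart form of lactate dehydrogenase. The adult heart burns mainly fatty acids, while activated macrophages and neutrophils rely strongly on glycolysis.

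Levels are log2 CPM, a count scaled to library size by TMM and put on a log2 scale with a prior count of 2. Library totals, in units of 1e6 counts, were 10.8 to 51.2 at day 7 and 48.1 to 92.9 at day 28. The count table of each day carries its own project number, taken here as a sequencing project. Day and project therefore cannot be told apart, and tests between groups stayed within a day. A mean over 20 heart muscle markers, in log2 CPM, gave 9.30 ± 0.535 (SD, n = 8) for non-diabetic tissue at day 7, 8.41 ± 1.25 (n = 8) for type 1 and 9.06 ± 0.727 (n = 8) for type 2, so markers of the labelled tissue were present in all groups. Some libraries stood apart. Type 1 replicate 4 at day 7, with the lowest cardiomyocyte mean (5.94), was the lowest of its group in 18 of the 32 members. Type 2 replicate 4 at day 28 (8.87) was the lowest in 17, type 2 replicate 7 at day 7 in 16 and non-diabetic replicate 5 at day 7 in 14. Counts of changed members are given below with and without them. These libraries were picked by the levels of the same members, so calls gained without them are not independent support. Only low libraries were picked. Type 2 replicate 1 at day 7, the highest of its group in 16 members, was kept. So were non-diabetic replicate 4 and type 1 replicate 2 at day 7, the highest in 12 each. Processed copies of Gapdh, Pgk1, Pgam1, Eno1, Ldha, Aldoa, Tpi1 and Pkm exist in the mouse genome, and how reads shared with such copies were counted is not given in the sources used here, which leaves those values uncertain.

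Per kilobase of exon, a scale on which genes can be compared, the members spanned a wide range. In non-diabetic tissue at day 7 the median CPM per kb was 395 for Gapdh and 363 for Aldoa, the aldolase of muscle and most tissues. Pkm followed at 204, Ldha at 170 and Tpi1 at 151. The lowest were Pfkfb1 at 0.805 and Aldoc, the brain-type aldolase, at 0.412. The pentose phosphate enzymes ran from 70.5 for Taldo1, about the level of Pfkm, through 21.9 for Pgd, 18.4 for Tkt and 16.2 for G6pdx to 2.02 for Rpia. At day 28 the muscle isozymes stood among the highest, with Ldhb at 442, Pgam2 at 394, Eno3 at 314 and Pfkm at 220 CPM per kb, against 119, 91.9, 89.1 and 70.4 at day 7. The 17 glycolysis genes held 0.663% ± 0.0779 (SD, n = 8) of all counts in non-diabetic tissue at day 7 and 0.993% ± 0.0776 (n = 11) at day 28. The 7 pentose phosphate genes held 0.0536% ± 0.00731 (n = 8) and 0.0315% ± 0.00551 (n = 11). These values across days are descriptions only.

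The first comparison was of type 1 diabetic with non-diabetic infarcts at day 7. Type 1 tissue had more RNA for Pgk1, Pkm and the general isozymes Pgam1 and Eno1 of lower glycolysis, for the myeloid hexokinase Hk3, the lactate exporter Slc16a3 and 3 pentose phosphate enzymes, and less for the muscle phosphofructokinase Pfkm and for Pfkfb2. Of the 32 members 9 rose and 2 fell in edgeR's quasi-likelihood test (adjusted p at or under 0.05 over all genes). Over all 18165 genes, 11.1% were called higher and 11.4% lower. The median log2 change was 0.18 over the members and -0.01 over all genes tested, and 21 members had a value above 0. By list, 5 of 17 glycolysis genes rose and 1 fell, 1 of 4 lactate genes rose, 1 of 4 Pfkfb genes fell, and 3 of 7 pentose phosphate genes rose. With libraries sharing a first number summed, 4 rose (Hk3, Pgam1, Pkm and G6pdx) and 1 fell (Pfkfb2), while Pgk1, Eno1, Slc16a3, Pgd, Taldo1 and Pfkm no longer passed. Without the 3 day 7 libraries that stood apart (an alternative chosen after seeing the data) 13 members rose and 5 fell. The count was 8 without type 1 replicate 6 and 15 without non-diabetic replicate 5, the extremes when each library was left out in turn. In bulk tissue, fewer cells of a type and less RNA per cell cannot be told apart.

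Among the hexokinases, Hk3 stood out. Hk3 is a hexokinase found mainly in myeloid cells. Its log2 CPM ran from 4.18 to 4.98 (median 4.76) in non-diabetic, 4.99 to 6.08 (5.64) in type 1 and 5.30 to 5.94 (5.43) in type 2 libraries. All 8 type 1 and all 8 type 2 libraries lay above all 8 non-diabetic ones. The rise in type 1 tissue was 0.89 (SE 0.133, adjusted p = 0.000156), a 1.85-fold difference. The general hexokinase Hk1 (0.20, SE 0.141, adjusted p = 0.311) and the insulin-responsive muscle form Hk2 (0.16, SE 0.179, adjusted p = 0.542) did not pass the test.

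At the phosphofructokinase step the muscle form had the lower values. Pfkm ran from 7.00 to 8.82 (median 7.88) in non-diabetic, 5.75 to 7.91 (7.11) in type 1 and 6.68 to 8.11 (7.81) in type 2 libraries. The type 1 and non-diabetic ranges overlapped, although all 8 type 1 values lay below the non-diabetic mean. The fall was 0.84 on the log2 scale (SE 0.265, adjusted p = 0.024). Leaving out any of 4 single libraries ended the call, with -0.67 (adjusted p = 0.0736) without non-diabetic replicate 2, and also without non-diabetic replicate 3, type 1 replicate 6 or type 1 replicate 7. The liver form Pfkl (-0.23, SE 0.131) and the platelet form Pfkp (0.27, SE 0.118) did not pass. Neither did Gpi1, Aldoa, Aldoc, Tpi1 and Gapdh, with log2 changes between -0.23 for Aldoa and 0.27 for Aldoc. Gapdh, often used as a reference gene, differed by 0.02 (SE 0.105, adjusted p = 0.919).

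Of the 6 glycolysis genes called, 4 belong to its lower steps. Pgam1, the general phosphoglycerate mutase, ran from 5.49 to 6.16 (median 5.92) in non-diabetic, 6.06 to 6.58 (6.36) in type 1 and 6.02 to 6.41 (6.16) in type 2 libraries, a rise of 0.47 in type 1 tissue (SE 0.0884, adjusted p = 0.000789). Eno1, the general enolase, ran from 8.14 to 8.90 (8.69), 8.77 to 9.39 (9.05) and 8.67 to 9.05 (8.79), a rise of 0.42 (SE 0.102, adjusted p = 0.00533). In both genes all 8 type 1 libraries exceeded the non-diabetic mean, while the ranges overlapped. Pkm, pyruvate kinase of muscle and most other tissues, ran from 9.90 to 10.25 (9.99), 10.21 to 10.66 (10.41) and 9.96 to 10.31 (10.09), a rise of 0.39 (SE 0.0834, adjusted p = 0.00199). The type 1 values of Pkm lay in 2 sets, 4 libraries from 10.53 up and 4 from 10.28 down, and 2 of the 8 non-diabetic libraries reached into the lower set. Pgk1, which makes the first ATP of the pathway, rose by 0.31 (SE 0.101, adjusted p = 0.0262, above the non-diabetic mean in 7 of 8 libraries). Its call was lost without type 1 replicate 8 (0.27, adjusted p = 0.0646) or without type 1 replicate 6. The muscle partners had values in the other direction that did not pass: Pgam2 at -0.95 (SE 0.352, adjusted p = 0.0538) and Eno3 at -0.56 (SE 0.291, adjusted p = 0.172). Pgam2 passed in DESeq2 (-0.95, adjusted p = 0.0442) and without the 3 libraries that stood apart (-0.92, adjusted p = 0.017).

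**Figure D1:**
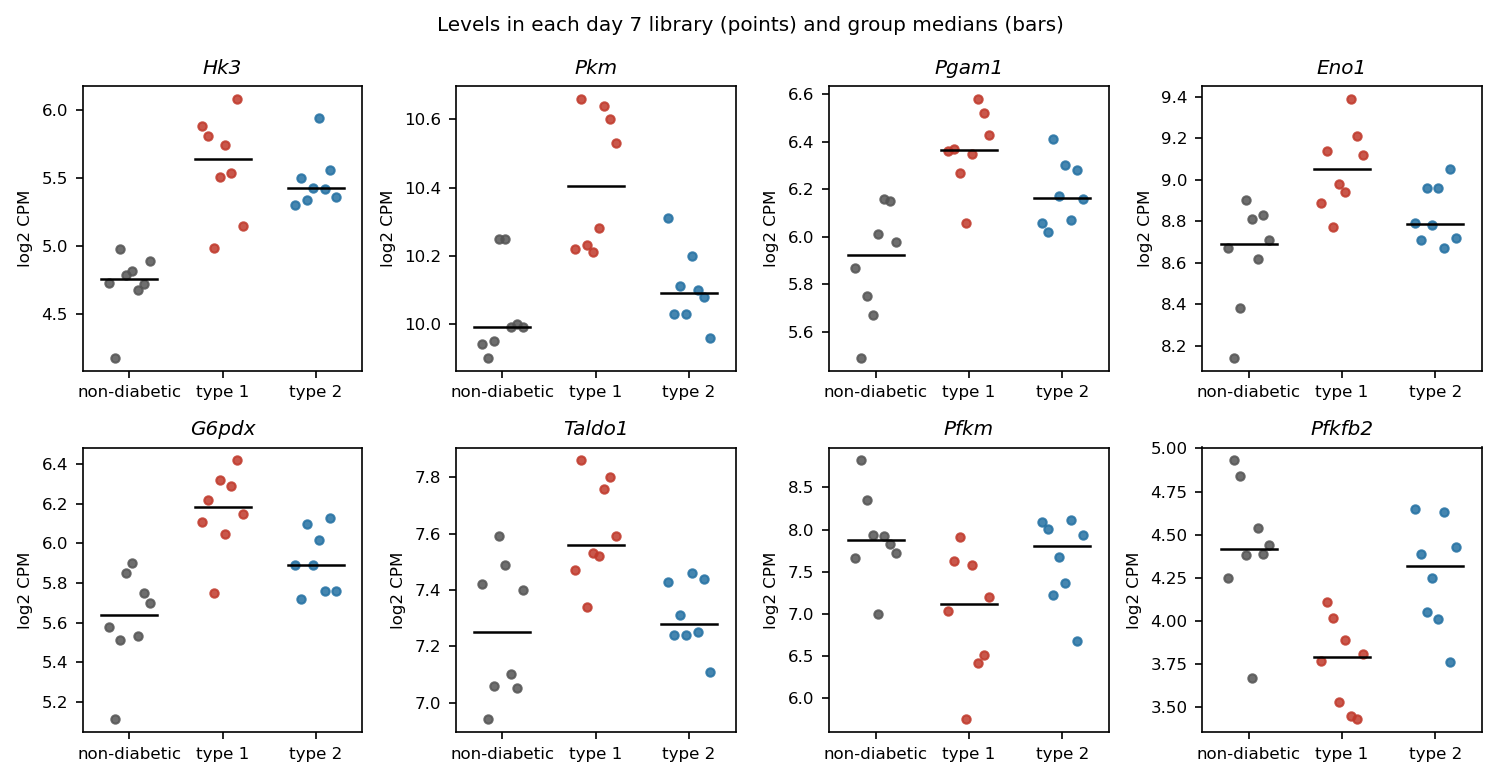
Level (log2 CPM, vertical axis) of 8 members in each day 7 library (points, 8 in each group) with the group median as a bar. Hk3 is the one member shown whose non-diabetic libraries (4.18 to 4.98) all lie below both diabetic groups, and in Pfkm and Pfkfb2 the type 1 median is the lowest of the 3 groups while the ranges overlap.

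Of the lactate genes, the carrier of glycolytic cells differed. Slc16a3 encodes MCT4, which exports lactate. It ran from 5.10 to 5.75 (median 5.53) in non-diabetic, 5.56 to 6.39 (5.71) in type 1 and 5.32 to 5.96 (5.73) in type 2 libraries. The ranges overlapped, and the rise in type 1 tissue was 0.37 (SE 0.125, adjusted p = 0.0329). Leaving out any of 5 single libraries ended its call (non-diabetic replicates 2 and 3, type 1 replicates 6, 7 and 8), down to 0.29 with adjusted p = 0.0836 when type 1 replicate 7 was left out. It was also lost with the cardiomyocyte markers as a covariate (0.26, adjusted p = 0.148). Slc16a1, the more general carrier MCT1, had a value of -0.19 (SE 0.198, adjusted p = 0.522). Ldha, the dehydrogenase form of glycolytic tissue, was at 0.20 (SE 0.0768, adjusted p = 0.0594) and Ldhb at -0.76 (SE 0.292, adjusted p = 0.0621). Without the 3 libraries that stood apart both passed, Ldha at 0.23 (adjusted p = 0.0119) and Ldhb at -0.72 (adjusted p = 0.0251).

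Among the Pfkfb genes the heart form had less RNA. Pfkfb2, which heart muscle uses to raise glycolysis in response to insulin and adrenaline, ran from 3.67 to 4.93 (median 4.42) in non-diabetic, 3.43 to 4.11 (3.79) in type 1 and 3.76 to 4.65 (4.32) in type 2 libraries. A single non-diabetic library, at 3.67, lay inside the type 1 range. Pfkfb2 fell by 0.70 (SE 0.149, adjusted p = 0.00197), below the non-diabetic mean in 8 of 8 libraries. Pfkfb3, the inducible form of many cell types, was at 0.31 (SE 0.191, adjusted p = 0.261), above the non-diabetic mean in all 8 type 1 libraries. Non-diabetic replicate 5 had the highest Pfkfb3 of all day 7 libraries, 6.90 against 5.65 for the next in its group. Without the 3 libraries that stood apart, a set that includes this library, Pfkfb3 passed at 0.50 (adjusted p = 0.00324). Pfkfb1 (0.32) and Pfkfb4 (0.24, adjusted p = 0.0539) did not pass.

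In the pentose phosphate pathway the first enzyme had the largest difference. G6pdx, glucose phosphate dehydrogenase, ran from 5.11 to 5.90 (median 5.64) in non-diabetic, 5.75 to 6.42 (6.18) in type 1 and 5.72 to 6.13 (5.89) in type 2 libraries. Only type 1 replicate 3, at 5.75, lay within the non-diabetic range. The rise was 0.55 (SE 0.102, adjusted p = 0.000779). Pgd, the second NADPH-making enzyme, ran from 6.64 to 7.26 (7.14) and 7.14 to 7.79 (7.40), a rise of 0.32 (SE 0.0967, adjusted p = 0.0202) that did not pass with the cardiomyocyte markers as a covariate (0.20, adjusted p = 0.105). Taldo1, transaldolase of the branch that returns sugars to glycolysis, ran from 6.94 to 7.59 (7.25) and 7.34 to 7.86 (7.56), a rise of 0.35 (SE 0.0955, adjusted p = 0.0115). Pgls, Rpia, Rpe and Tkt lay between -0.03 and 0.15 and did not pass. Together the 7 genes held 0.0683% ± 0.00893 (SD, n = 8) of counts in type 1 and 0.0600% ± 0.00612 (n = 8) in type 2 tissue, against 0.0536% in non-diabetic tissue.

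The promoters of 4 members that rose together are shown because each holds the core ACGTG of the hypoxia response element, and Hk3 and Pgam1 also hold GAGGAAG, the core of sites bound by the myeloid factor PU.1. The windows run from 250 bases before to 50 after a RefSeq transcript start (build GRCm38.p6, not the build of the counts) and read 5′ to 3′ along the gene's strand. Capitals mark matches to ACGTG or GAGGAAG on either strand in Hk3 (chr13:55021336-55021635, minus strand), Pgk1 (chrX:106186850-106187149, plus), Pgam1 (chr19:41911621-41911920, plus) and G6pdx (chrX:74428831-74429130, minus).
Hk3: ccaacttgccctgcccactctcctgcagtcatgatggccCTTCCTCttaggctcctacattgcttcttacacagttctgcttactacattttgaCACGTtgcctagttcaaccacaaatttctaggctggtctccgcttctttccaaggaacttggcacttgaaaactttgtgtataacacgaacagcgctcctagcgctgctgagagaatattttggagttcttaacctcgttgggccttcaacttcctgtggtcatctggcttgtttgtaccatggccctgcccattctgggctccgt
Pgk1: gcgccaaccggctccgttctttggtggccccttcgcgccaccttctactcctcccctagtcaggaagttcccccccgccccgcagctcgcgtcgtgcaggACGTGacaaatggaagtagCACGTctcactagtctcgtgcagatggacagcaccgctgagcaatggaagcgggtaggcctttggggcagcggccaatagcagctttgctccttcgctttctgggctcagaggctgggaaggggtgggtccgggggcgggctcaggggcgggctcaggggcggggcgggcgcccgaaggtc
Pgam1: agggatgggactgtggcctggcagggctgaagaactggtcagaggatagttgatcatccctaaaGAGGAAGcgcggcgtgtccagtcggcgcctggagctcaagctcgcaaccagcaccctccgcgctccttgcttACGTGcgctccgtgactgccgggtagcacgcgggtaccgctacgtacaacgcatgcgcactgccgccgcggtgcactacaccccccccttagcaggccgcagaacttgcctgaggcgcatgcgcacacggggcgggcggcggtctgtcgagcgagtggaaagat
G6pdx: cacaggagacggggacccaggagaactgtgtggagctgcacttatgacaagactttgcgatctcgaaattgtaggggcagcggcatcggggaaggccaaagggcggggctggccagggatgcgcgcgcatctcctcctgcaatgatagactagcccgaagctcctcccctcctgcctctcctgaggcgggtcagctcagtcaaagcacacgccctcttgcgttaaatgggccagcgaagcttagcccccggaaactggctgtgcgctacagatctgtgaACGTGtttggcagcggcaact
All 32 members had a RefSeq window. ACGTG occurred in 1 or more windows of 16 of the 32 members, and in 5886 of 27025 genes (21.8%). Members have more than 1 window in several cases, and per window the counts were 20 of 50 (40%) and 6447 of 32851 (19.6%). CACGTG, the E-box, contains ACGTG on both strands and is counted with it. GAGGAAG occurred in 7 of 32 members and in 15.4% of all genes. Of these members Hk3 and Pgam1 rose in type 1 tissue at day 7 and Pfkm fell. Hk1, Aldoa, Pfkfb1 and Rpe, which also hold it, were not called there. A loose pattern for the muscle factor MEF2 left its middle bases open to any letter. It occurred in Ldhb alone of the members and in 4.23% of genes, and its matches need not be MEF2 sites. Of the 9 members that rose, Eno1, Pgd and Taldo1 had no ACGTG, while Pfkm and Pfkfb2, which fell, had it in at least 1 window. A match of letters is a description and shows no binding.

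Marker lists of other cell types differed between the same groups. Of 17 monocyte and macrophage markers 12 rose in type 1 tissue, with a summed level of 4178 to 6181 CPM in non-diabetic, 5722 to 7232 in type 1 and 5799 to 7227 in type 2 libraries. Their mean log2 CPM was 6.15 to 6.88 in non-diabetic, 7.05 to 7.5 in type 1 and 6.94 to 7.37 in type 2 libraries, so that the non-diabetic group did not overlap either diabetic group. Of 12 neutrophil markers 9 were tested and 8 rose, with summed levels of 38.1 to 227 CPM in non-diabetic, 91.9 to 667 in type 1 and 73.8 to 153 in type 2 libraries. Ly6g, a defining neutrophil marker, had no count in 17 of the 24 libraries. Of 7 tested erythroid markers 5 rose, and of 7 mural cell markers 4 fell. Of 10 fibroblast markers 8 fell, from a summed 48476 to 62662 CPM in non-diabetic to 26055 to 53371 in type 1 libraries. None of 20 cardiomyocyte markers passed, with sums of 11443 to 40679, 3084 to 28841 and 8526 to 29611 CPM in the order non-diabetic, type 1, type 2. Only 1 of the 20 had a log2 change above 0 in type 1 tissue. Their median was -0.45, and 5 had an unadjusted p under 0.05 in edgeR. With the cardiomyocyte mean as a covariate, Hk3, Pgk1, Pgam1, Eno1, Pkm, Pfkfb2, G6pdx and Taldo1 kept their calls, and the log2 change of Pfkm was -0.34 (adjusted p = 0.0224). With the monocyte and macrophage mean and the neutrophil mean as 2 covariates, no member and none of all genes tested was called, and Hk3 was at 0.18 (adjusted p = 0.808). Since the macrophage mean separates the groups, that fit cannot tell the group from the marker level. Fits with fibroblast markers as a covariate were not run, and the part of that list was not tested.

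**Figure D2:**
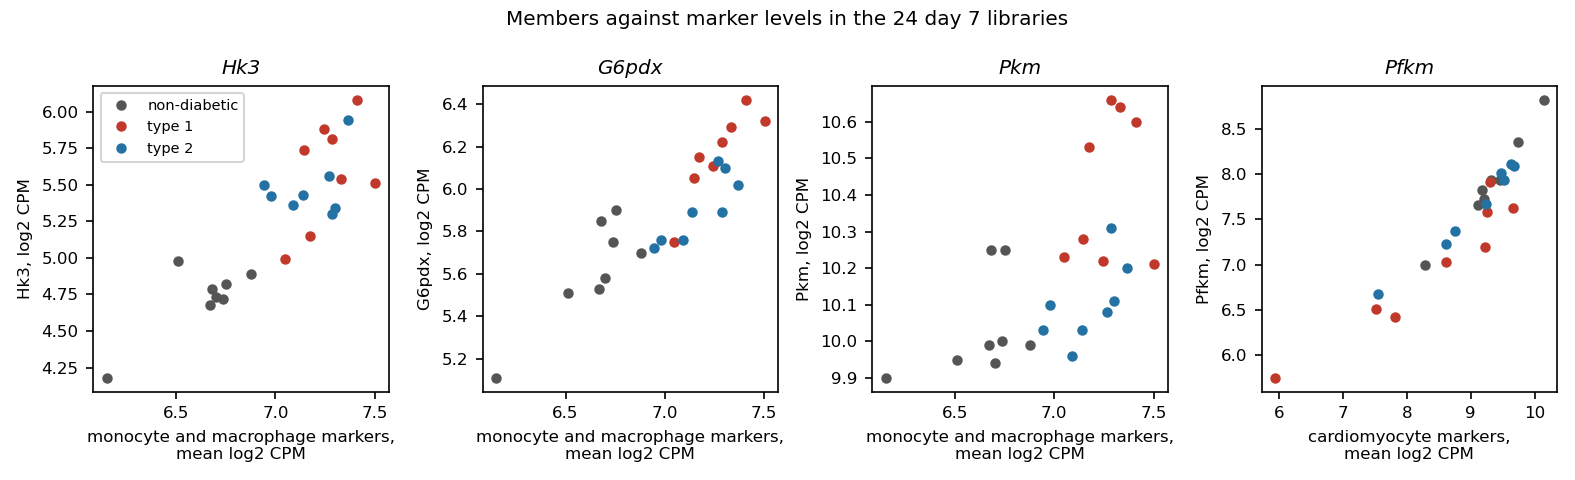
Level (log2 CPM, vertical axes) of Hk3, G6pdx and Pkm against the mean log2 CPM of monocyte and macrophage markers, and of Pfkm against cardiomyocyte markers, in the 24 day 7 libraries (points coloured by group). The non-diabetic libraries lie left of 6.88 on the macrophage axis and all diabetic libraries right of 6.94, and the lowest Pfkm value, 5.75, belongs to the library with the lowest cardiomyocyte mean, 5.94.

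The type 2 comparison with non-diabetic infarcts at day 7 gave 1 call. Hk3 rose by 0.75 (SE 0.132, adjusted p = 0.00101), a 1.68-fold difference, with no overlap between groups, and kept its call with summed libraries (0.70, adjusted p = 0.00936). No member fell. Over all genes, 3.85% were called higher and 3.5% lower, and the median log2 change was 0.04 over the members and -0.03 over all genes. Pgam1 was next at 0.28 (SE 0.0884, adjusted p = 0.056, above the non-diabetic mean in 8 of 8 libraries) and passed in DESeq2 (0.28, adjusted p = 0.0305). G6pdx was at 0.28 (SE 0.102, adjusted p = 0.098) and Pgd at 0.20, each above the non-diabetic mean in 8 of 8 libraries. Pkm was at 0.05 (SE 0.0832) and Taldo1 at 0.03 (SE 0.0954). The muscle genes had values of -0.29 (Pfkm), -0.42 (Pgam2), -0.36 (Eno3), -0.30 (Ldhb) and -0.18 (Pfkfb2), none of which passed. Both diabetic groups were set against the same 8 non-diabetic libraries. Of the monocyte and macrophage markers 9 of 17 rose here, and of the neutrophil markers 2 of 9 tested, and with these means as covariates Hk3 was at 0.034 (adjusted p = 0.986). Of 8 T and NK cell markers 7 rose, whose part in the result was not tested. Without the 3 libraries that stood apart, among them non-diabetic replicate 5 with its high Pfkfb3, Pfkfb3 was called as well (0.53, adjusted p = 0.00743).

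Type 1 and type 2 tissue at day 7 were also compared directly. Pkm was higher in type 1 tissue by 0.34 (SE 0.0833, adjusted p = 0.0296), above the type 2 mean in 8 of 8 libraries, the 1 call among the members. Over all genes, 1.51% were called higher and 1.19% lower. Leaving out any of 7 single libraries ended the call (type 1 replicates 6, 7 and 8 and type 2 replicates 2, 4, 6 and 8), with 0.31 (adjusted p = 0.0776) without type 1 replicate 6. Pkm did not pass with summed libraries either (0.29, adjusted p = 0.403). Next were Pfkfb2 at -0.52 (SE 0.148, adjusted p = 0.055), Hk1 at 0.47 (SE 0.141, adjusted p = 0.0659) and Taldo1 at 0.32 (SE 0.0954, adjusted p = 0.0695). Hk1 ran from 7.22 to 8.72 (median 8.13) in type 1 and from 7.54 to 7.92 (7.72) in type 2 libraries. Without the 3 libraries that stood apart 5 members were called, among them Hk1 (0.55, adjusted p = 0.01), Pgk1 (0.35), Pfkfb2 (-0.56) and Taldo1 (0.35). With the cardiomyocyte covariate 6 were called, with Hk1 at 0.59 (adjusted p = 0.00404) and Hk2 at 0.52 (adjusted p = 0.025). Hk3 differed by 0.14 (SE 0.131, adjusted p = 0.569) between the diabetic groups.

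**Figure D3:**
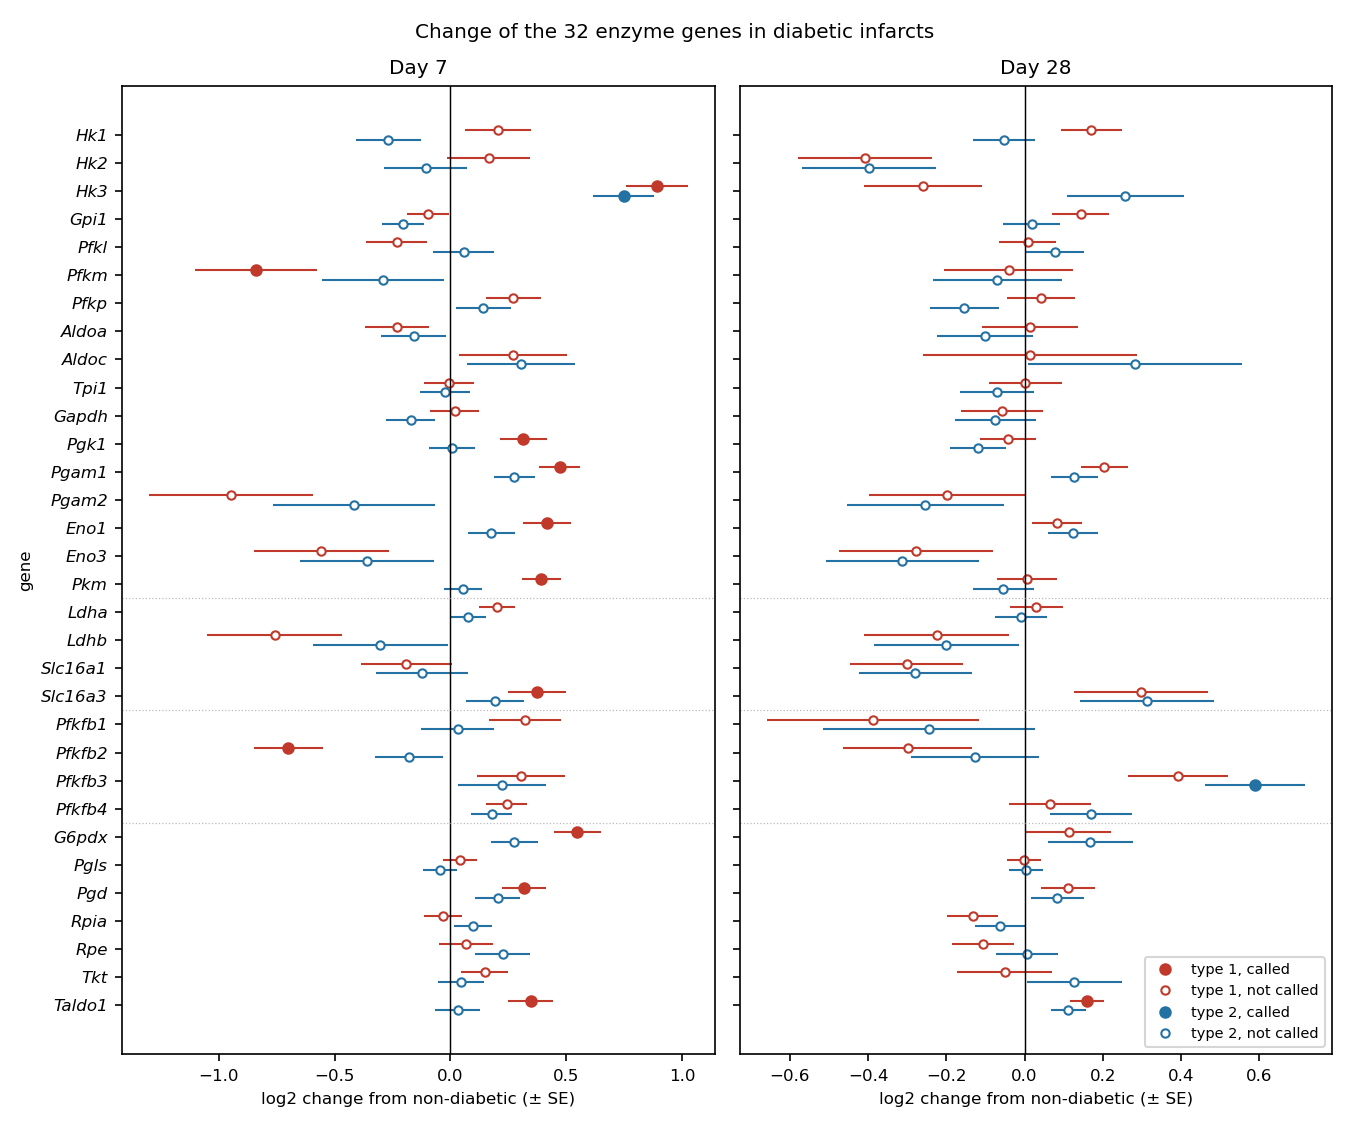
Log2 change from non-diabetic tissue (horizontal axis, bars are ± SE) of the 32 members at day 7 (left, n = 8 in each group) and day 28 (right, n = 10 diabetic libraries against 11), with filled points for calls. At day 7 the type 1 calls lie on both sides of 0, from -0.84 for Pfkm to 0.89 for Hk3, and at day 28 the filled points are Taldo1 in type 1 and Pfkfb3 in type 2 tissue. The scales of the panels differ.

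At day 28 the differences were fewer. In type 1 against non-diabetic tissue Taldo1 rose by 0.16 (SE 0.0441, adjusted p = 0.0349, above the non-diabetic mean in 10 of 10 libraries), and no member fell. Over all genes, 2.6% were called higher and 1.41% lower. Taldo1 ran from 6.31 to 6.72 (median 6.59) in non-diabetic, 6.57 to 6.84 (6.75) in type 1 and 6.53 to 6.78 (6.70) in type 2 libraries, so the groups overlapped. Leaving out any of 11 single libraries ended the call (non-diabetic replicates 4, 5, 6, 7 and 10, and type 1 replicates 3, 5, 6, 7, 9 and 10), with 0.15 (adjusted p = 0.0717) without type 1 replicate 3. Taldo1 did not pass with summed libraries either (0.16, adjusted p = 0.23). Pgam1 ran from 5.34 to 5.67 (5.44), 5.41 to 5.82 (5.74) and 5.32 to 5.93 (5.62), a difference of 0.20 in type 1 tissue (SE 0.0608, adjusted p = 0.051). Pfkfb3 was at 0.39 (SE 0.128, adjusted p = 0.0757) and Hk2 at -0.41 (SE 0.172, adjusted p = 0.178). Hk2 ran from 7.33 to 8.39 (8.12) in non-diabetic and 7.38 to 8.08 (7.61) in type 1 libraries. With the cardiomyocyte covariate 6 members were called, among them Hk1 (0.22, adjusted p = 0.0151), Hk2 (-0.23, adjusted p = 0.0187), Gpi1 (0.19, adjusted p = 0.011) and Pfkfb3 (0.31, adjusted p = 0.0284).

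In type 2 against non-diabetic tissue at day 28 the inducible Pfkfb3 rose by 0.59 (SE 0.128, adjusted p = 0.00272), a 1.5-fold difference. Over all genes, 7.21% were called higher and 3.5% lower, and 1 of 32 members is a smaller share than the first. Pfkfb3 ran from 4.31 to 5.21 (median 4.53) in non-diabetic, 4.64 to 5.27 (4.95) in type 1 and 4.40 to 5.87 (5.2) in type 2 libraries, and 9 of 10 type 2 libraries exceeded the non-diabetic mean. Of the monocyte and macrophage markers 7 of 17 rose in the same comparison, with summed levels of 844 to 2938 CPM in non-diabetic, 1383 to 2893 in type 1 and 1489 to 3778 in type 2 libraries. All 8 T and NK cell markers rose too (summed 3.93 to 24.3 CPM in non-diabetic and 12.4 to 76.7 in type 2 libraries), as did 4 of 10 endothelial markers (1421 to 1920 and 1540 to 2824 CPM), while 1 fibroblast, 1 mural and 1 cardiomyocyte marker fell. The part of these lists in the result was not tested. Type 2 replicate 4 had the highest type 2 value of Pfkfb3 and of the summed macrophage, neutrophil, endothelial, and T and NK cell markers. Of the neutrophil markers 2 of 10 tested rose, with sums of 11.9 to 31.8, 12.2 to 30.1 and 18.8 to 45.0 CPM, and Ly6g had no count in 21 of the 31 libraries. With these means as 2 covariates Pfkfb3 was at 0.28 (adjusted p = 0.191), and with the cardiomyocyte covariate it kept its call. With libraries sharing a first number summed, Pfkfb3 was at 0.51 (adjusted p = 0.161). Hk2 (-0.40, SE 0.172, adjusted p = 0.137) did not pass, nor did Slc16a3 (0.31, adjusted p = 0.257), whose highest type 2 library, 5.32, stood above the non-diabetic highest, 4.50. Without type 2 replicate 4 of day 28 the counts of members called were 3 in type 1 and 1 in type 2 against non-diabetic tissue. Pfkm was at -0.07 (SE 0.165) and had the opposite sign with the cardiomyocyte covariate (0.19, adjusted p = 0.0137).

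**Figure D4:**
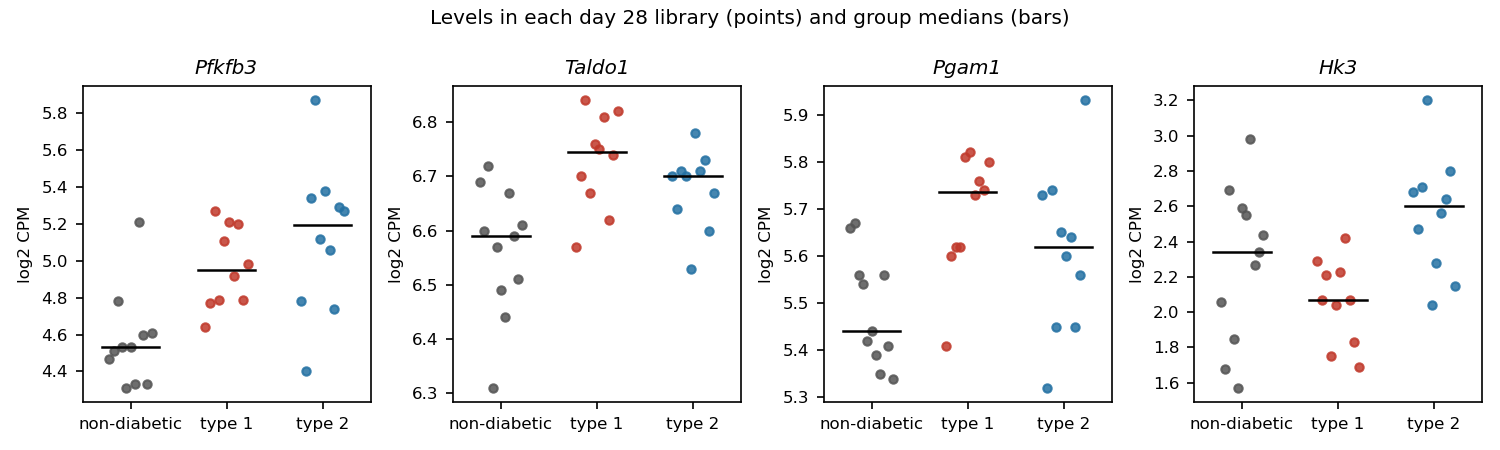
Level (log2 CPM, vertical axis) of Pfkfb3, Taldo1, Pgam1 and Hk3 in each day 28 library (points, 11 non-diabetic, 10 type 1 and 10 type 2) with the group median as a bar. Pfkfb3 medians are 4.53, 4.95 and 5.2 in that order, and the groups overlap in all 4 genes.

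Between type 1 and type 2 tissue at day 28 no member was called in edgeR, 3 of 32 had an unadjusted p under 0.05, and DESeq2 and limma-voom each called 1. Over all genes, 1.19% were called higher and 2.03% lower. Hk3, the member that DESeq2 called (-0.52, adjusted p = 0.0199), ran from 1.69 to 2.42 (median 2.07) in type 1 and 2.04 to 3.2 (2.60) in type 2 libraries, a difference of -0.52 in edgeR (SE 0.154, adjusted p = 0.0553). All 10 type 1 libraries lay below the type 2 mean. Of the monocyte and macrophage markers 3 of 17 were lower in type 1 tissue here.

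The change of the diabetic effect between days was tested in a fit of all 6 groups. The type 1 effect was smaller at day 28 for Hk3 (-1.16, SE 0.207, adjusted p = 0.000112), G6pdx (-0.45, SE 0.151, adjusted p = 0.0412), Pkm (-0.40, SE 0.114, adjusted p = 0.0141), Pgk1 (-0.37, SE 0.125, adjusted p = 0.0384) and Eno1 (-0.35, SE 0.113, adjusted p = 0.0335), where the value is the effect at day 28 minus that at day 7. Over all 20421 genes tested there, 12.5% were called in either direction. Hk3 turned from 0.89 at day 7 to -0.26 (SE 0.15, adjusted p = 0.346) at day 28, where its levels were also lower in all groups (non-diabetic median 2.34 against 4.76). Pkm went from 0.39 to 0.01 and Eno1 from 0.42 to 0.08. An offset of a sequencing project that is not the same in all groups cannot be told apart from the day. The calls of Hk3 and Pkm held without any single library, and those of Pgk1, Eno1 and G6pdx were lost without 13, 5 and 18 of the 55, with the weakest values at -0.33 for Pgk1 (adjusted p = 0.0853, without type 1 replicate 8 of day 7), -0.30 for Eno1 (0.079, without type 1 replicate 6 of day 7) and -0.38 for G6pdx (0.0857, without non-diabetic replicate 2 of day 7). With the myeloid means as 2 covariates the G6pdx value was -0.05 (adjusted p = 0.779) and that of Eno1 -0.22 (adjusted p = 0.195), while Hk3 kept its call. The macrophage mean, scaled within each day, was 6.63 at day 7 and 5.18 at day 28 in non-diabetic tissue, and it separates the groups at day 7. That fit therefore cannot tell the marker level from day or group, and nothing is concluded from which calls it kept. With the cardiomyocyte covariate G6pdx (-0.30, adjusted p = 0.0804) and Eno1 (-0.28, adjusted p = 0.0559) did not pass. With summed libraries Hk3 alone was called (-1.22, adjusted p = 0.00284). Without the 4 libraries that stood apart 8 members were called. For the type 2 effect no member was called in edgeR, DESeq2 or limma-voom, against 1.51% of all genes in edgeR, and 2 had an unadjusted p under 0.05. Hk3 was at -0.51 (SE 0.206, adjusted p = 0.19).

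The balance of muscle and general isozymes was described per library as the log2 ratio of CPM per kb. At day 7 Pgam2 over Pgam1 had a median of 1.38 over non-diabetic, 0.30 over type 1 and 1.33 over type 2 libraries. Eno3 over Eno1 was 0.11, -0.62 and 0.02, Ldhb over Ldha -0.56, -1.29 and -0.62, and Pfkm over Pfkl 1.80, 1.32 and 1.69. The type 1 median was the lowest in all 4 pairs, and the ranges overlapped in each. At day 28 the non-diabetic medians were 4.07, 2.72, 1.02 and 2.85 in the same order of pairs. In type 1 libraries they were 3.56, 2.38, 0.70 and 2.92, and in type 2 libraries 3.65, 2.42, 0.87 and 2.85. The cardiomyocyte mean was also higher at day 28, at 10.9 ± 0.292 (SD, n = 11) in non-diabetic tissue, and its part in the ratios was not tested. Markers of skeletal muscle, which shares Pgam2, Eno3 and Pfkm, summed to 25.2 to 148 CPM in non-diabetic libraries at day 7 and to 27 to 1825 at day 28. At day 28 they summed to 27.5 to 2886 in type 1 and 27.5 to 1723 in type 2 libraries, with none of 9 called in either diabetic comparison. With their mean as a covariate, added after seeing the data, the counts of members called at day 28 were 2 and 1 in type 1 and type 2 against non-diabetic tissue.

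**Figure D5:**
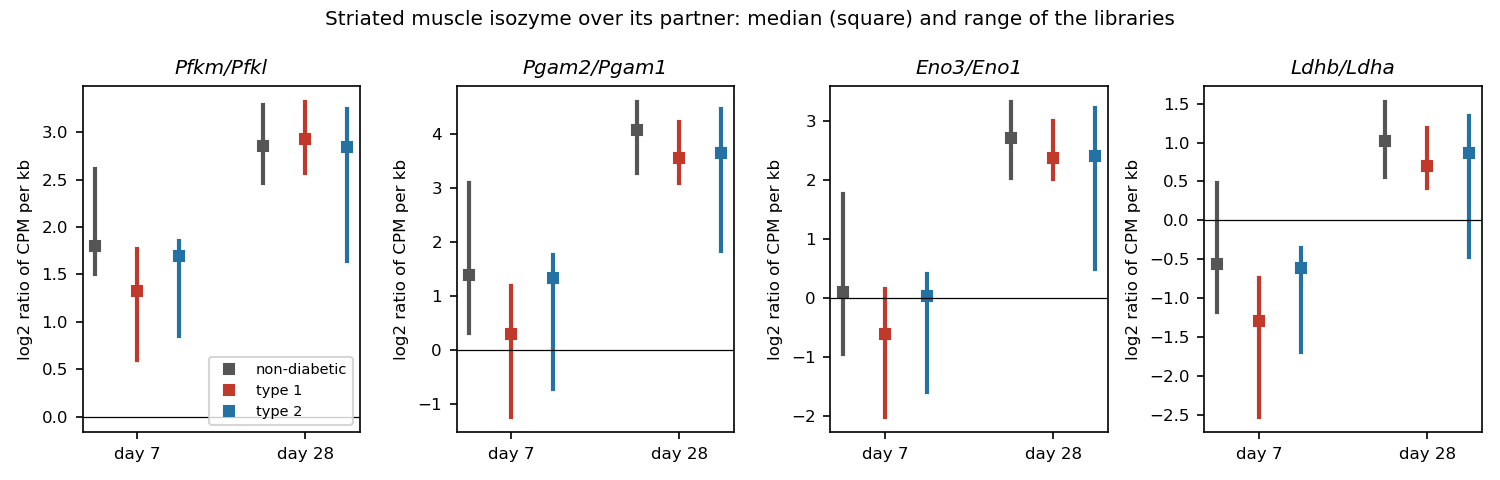
Log2 ratio of CPM per kb (vertical axis) of a muscle isozyme over its partner, by day and group, with squares for medians and lines from the lowest to the highest library. At day 7 the type 1 medians are the lowest of the 3 groups (0.30 for Pgam2 over Pgam1), and all medians are higher at day 28.

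Genes around the pathway were taken from lists of neighbours. For scale, 11.1% of all genes tested rose and 11.4% fell in type 1 against non-diabetic tissue at day 7. Of 9 tested genes of glucose entry and other isozymes, 1 rose and 3 fell in type 1 tissue at day 7, the general glucose transporter Slc2a1 rising by 0.41 (SE 0.111, adjusted p = 0.0097) and the insulin-responsive transporter Slc2a4 falling by 1.28 (SE 0.345, adjusted p = 0.0101). Of 4 partners and relatives of the lactate carriers 1 rose and 1 fell. Emb, a chaperone of monocarboxylate carriers, rose by 0.94 (SE 0.22, adjusted p = 0.00379), and the carrier Slc16a8 fell by 1.71 (SE 0.363, adjusted p = 0.00195). Of 14 glycogen genes 3 rose and 1 fell, with the phosphorylase Pygl at 0.40 and the kinase subunit Phkg1 at -0.60, the latter with no overlap between groups. Of 12 other HIF-1 target genes none rose and P4ha2 fell by 0.28 (adjusted p = 0.00469). Of 7 tested side enzymes of the pentose phosphate pathway Prps1, which uses its ribose for nucleotides, rose by 0.24 (adjusted p = 0.0164). Of 5 genes of glucose-responsive transcription 2 rose and 1 fell, with log2 changes from -1.21 to 0.37 over the list. Of 15 genes of pyruvate entry to mitochondria 1 fell, and of 4 polyol and fructose genes 1 rose.

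At day 28 the calls among the neighbours included Pdk4 and Txnip in both diabetic groups. Against non-diabetic tissue, 2.6% of all genes rose and 1.41% fell in type 1, and 7.21% rose and 3.5% fell in type 2 tissue. Pdk4, a kinase that inhibits pyruvate dehydrogenase, rose by 1.90 in type 1 (SE 0.216, adjusted p = 2.14e-06, no overlap with non-diabetic libraries) and by 1.48 in type 2 tissue (SE 0.213, adjusted p = 1.99e-05). It was 1 of 15 genes of pyruvate entry to mitochondria to rise in each comparison, while Pdp2, a phosphatase that opens the enzyme, fell by 0.56 in type 1 and Pdp1 by 0.27 in type 2 tissue. Of 5 genes of glucose-responsive transcription 2 rose in each. Txnip, which is induced by glucose and restrains its uptake, rose by 0.82 in type 1 (SE 0.0945, adjusted p = 2.63e-06) and by 0.34 in type 2 tissue (SE 0.0942, adjusted p = 0.0186), and was higher in type 1 than in type 2 tissue by 0.48 (SE 0.0967, adjusted p = 0.00297) with no overlap. Arrdc4, its relative, rose by 0.31 (adjusted p = 0.00992) and 0.24 (adjusted p = 0.0267). Of 14 glycogen genes 2 fell in each, Ugp2, which makes the glucose donor of glycogen, by 0.53 and 0.48, and Phka1 by 0.43 and 0.42. At day 7 Pdk4 rose by 1.19 in type 2 tissue (SE 0.347, adjusted p = 0.0369) and was at 0.64 in type 1 tissue (SE 0.344, adjusted p = 0.182). Its effect at day 28 minus day 7 was 1.23 for type 1 (SE 0.401, adjusted p = 0.0344) and 0.25 for type 2 (SE 0.4, adjusted p = 0.825).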

How the data were processed

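RNA from mouse left ventricular infarcts was sequenced with a TruSeq Stranded mRNA kit, per the labels' protocols. For each day the authors deposited 1 table of unnormalized counts, with Ensembl genes in rows. Build mm39 and DESeq2 are named in the submitters' processing notes, while aligner, counter and strand setting were not given in the sources used here. Of counts from 1 to 49, 76.4% were even at day 7 and 75.2% at day 28, the cause of which was not tested. One fit per day held its 3 groups, with edgeR 4.0.16 (TMM, filterByExpr with a minimum count of 10 and total of 15, quasi-likelihood test, Benjamini-Hochberg adjustment over all genes, threshold 0.05), and all 6 groups for the change between days. SE is the log2 change divided by the root of F. R 4.3.3, limma 3.58.1 and DESeq2 1.42.0 were used. The type 1 against non-diabetic test of each day was also run on simulated counts, drawn independently for each library. The simulation held no shared sets of libraries, no libraries that stood apart and no shifts of cell types, so it does not cover these. Exon lengths came from a GRCm38 annotation. Members and lists were chosen with earlier results of these data known. All members are described, and named neighbours are among the up to 3 called genes with the smallest p of their list and comparison. No 2 libraries of the same group agreed within sampling noise, and pairs from different groups were not compared.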

Additional observations from a re-analysis of the deposited data

Results flagged for a closer look

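Within groups of 8 or 10 libraries, 160 combinations of member and group were searched for a library far from the others, and 29 had one. The threshold gives about 1 in 20 by chance for independent draws. Members of a group share its libraries and are not independent, so the 29 cannot be set against that rate. Groups of 11 were not searched. Type 2 replicate 4 at day 28 was far below its group in 14 members, with log2 CPM of 7.62 in Hk1, 8.96 in Gpi1, 7.71 in Pfkm, 9.79 in Aldoa, 8.30 in Tpi1, 10.19 in Gapdh and 7.40 in Pgk1. In the same library Pgam2 was at 6.05, Eno3 at 6.95, Pkm at 9.30, Ldha at 8.99, Ldhb at 7.44, Slc16a1 at 6.09 and Pfkfb2 at 3.65. It had the lowest cardiomyocyte marker mean of its group (8.87 log2 CPM) and the lowest share of mitochondrial counts (6.50%). It had the highest summed markers of B cells (7752 CPM, next 1346), of T and NK cells (76.7, next 27.8), of neutrophils (45.0, next 27.6) and of monocytes and macrophages (3778, next 3108). The part of these in its levels was not tested.

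At day 7, non-diabetic replicate 5 was far below its group in Hk2 (6.34), Pfkl (6.11) and Rpia (3.03) and far above it in Pfkfb3 (6.90, next 5.65). Type 1 replicate 4 was far below in Hk2 (6.35), Pfkl (6.15), Pfkp (6.83) and Pgk1 (7.67) and above in Pfkfb1 (2.63). Non-diabetic replicate 2 was low in Hk3 (4.18) and Pgd (6.64), non-diabetic replicate 4 high in Pgk1 (8.35), type 2 replicate 5 high in Hk3 (5.94), and type 2 replicate 7 low in Tpi1 (8.29) and Gapdh (10.20).

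The type 1 effect differed between the days, by the test of that difference, in Hk3 (-1.16), G6pdx (-0.45), Pkm (-0.40), Pgk1 (-0.37) and Eno1 (-0.35), each given as day 28 minus day 7. Day cannot be told apart from sequencing project.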

How the results depend on the processing

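The counts of members called moved with the processing, and the cause was not tested. For type 1 against non-diabetic tissue at day 7 (11 members) limma-voom called 18, the sum of libraries sharing the first number of their name 5, the fit without the 3 libraries lowest in 14 or more members 18, and the myeloid covariates, alone or with the cardiomyocyte one, 0. Single libraries left out gave 8 to 15. For type 2 against non-diabetic tissue at day 7 (1 member) RLE scaling, DESeq2 and the fit without those libraries called 2, limma-voom 4, the myeloid covariates 0 and single libraries left out 1 to 2. For type 1 against type 2 tissue at day 7 (1 member) the counts were 0 with no filter or summed libraries, 4 in DESeq2, 9 in limma-voom, 6 with the cardiomyocyte or all 3 covariates, 3 with only the groups compared or the skeletal muscle covariate, 5 without those libraries and 0 to 4 with single libraries left out.

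At day 28, type 1 against non-diabetic tissue (1 member) had 0 members called with no filter or summed libraries, 3 in DESeq2, with the myeloid covariates or with only the groups compared, 7 in limma-voom, 6 with the cardiomyocyte and 5 with 3 covariates, 2 with the skeletal muscle covariate and 0 to 3 with single libraries left out. Type 2 against non-diabetic tissue (1 member) had 2 in limma-voom and with the cardiomyocyte or 3 covariates, 0 with summed libraries and 1 to 2 with single libraries left out. Type 1 against type 2 tissue (0 members) had 1 in DESeq2, limma-voom, with the cardiomyocyte covariate, the myeloid covariates or only the groups compared, and 0 to 1 with single libraries left out. The change of the type 1 effect (5 members) had 2 with no filter, 9 in limma-voom, 8 with the cardiomyocyte or 3 covariates, 10 with the myeloid covariates, 1 with summed libraries, 8 without the 4 libraries and 2 to 7 with single libraries left out. The lowest count, 2, came without non-diabetic replicate 2 or 3 or type 1 replicate 6 or 8 of day 7. The change of the type 2 effect (0 members) had 1 with the myeloid or 3 covariates and 0 to 0 with single libraries left out.

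Some values changed sign. For type 1 against non-diabetic tissue at day 7 the values with the myeloid and with all 3 covariates were 0.40 and 0.077 for Pfkm, -0.17 and -0.16 for Eno1, -0.21 and -0.17 for Slc16a3, -0.094 and -0.065 for G6pdx, -0.30 and -0.28 for Pgd, and -0.12 and -0.15 for Taldo1. None of these passed. For type 2 against non-diabetic tissue at day 28 Pfkm was at 0.19 with the cardiomyocyte and 0.21 with 3 covariates, and both passed (adjusted p = 0.0137 and 0.03).

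The labels do not say whether replicate numbers pair the libraries. Same-numbered libraries of different groups had a median correlation of 0.0902 at day 7, against -0.00694 for other numbers. At day 28 the medians were 0.0223 and 0.00729. Of same-numbered pairs, 12 of 24 at day 7 and 7 of 30 at day 28 had a correlation over 0.1. With the replicate number as a block the counts of members called were 12, 2 and 0 in the order above at day 7, 0, 1 and 0 at day 28, and 4 and 0 for the changes between days.

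The covariate for skeletal muscle, the joint omission of libraries and the omissions of single libraries from the fit of both days were chosen after seeing the data.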
